A study of Mus musculus with 15 samples.

Results

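The genes described are 8 genes of the major histocompatibility complex (MHC) class II pathway, taken by name: the invariant chain gene Cd74, the classical chain genes H2-Aa, H2-Ab1 and H2-Eb1, the peptide-loading genes H2-DMa, H2-Oa and H2-Ob, and Ciita. Each had 1 probe set annotated to it alone, and all 8 were among the 19938 genes measured. Cells were sorted from mouse bone marrow and their total RNA was hybridised to Affymetrix arrays, which read the RNA of a whole sorted population. The 3 genotypes were Id2 KO, Batf3 KO and WT, each carrying a Zbtb46-GFP reporter, and the 2 stages were cells labelled Zbtb46-GFP+ and c-Kit intermediate, with 3 arrays per genotype, and common dendritic cell progenitors (CDPs), with 2 arrays per genotype. Id2 KO and WT cells came from chimeric mice, while Batf3 KO cells came from reporter mice with no chimerism named, so the kind of host and the loss of Batf3 cannot be told apart. The labels give neither the age of the mice nor the donor and host cells of the chimeras, and they do not say that replicates came from separate mice, so p-values measure the spread between these arrays.

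MHC class II molecules are heterodimers of an alpha and a beta chain that show peptides from internalised proteins to CD4+ T cells, and dendritic cells carry them at high levels. The new dimer is filled by the invariant chain, which guides it to endosomes and leaves the fragment CLIP in the groove. H2-DM then exchanges CLIP for other peptides and H2-O holds H2-DM back. Transcription of the classical chain genes depends largely on Ciita, a coactivator that binds no DNA itself. It is recruited by RFX, CREB and NF-Y factors sitting on the W, X and Y boxes of class II promoters. In dendritic cells Ciita is transcribed from its own myeloid promoter, and in plasmacytoid dendritic cells from the promoter that B cells use. Batf3 is a factor required for the classical type 1 dendritic cell (cDC1), and Id2 restrains the E proteins that set plasmacytoid fate.

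The class II genes lie together on chromosome 17 of the mouse genome (RefSeq positions on GRCm38.p6): H2-Oa at chr17:34092379-34095234, H2-DMa at chr17:34119693-34139101, H2-Ob at chr17:34238905-34245908, H2-Ab1 at chr17:34263227-34269418, H2-Aa at chr17:34282744-34287823 and H2-Eb1 at chr17:34305867-34316674. Ciita and Cd74 lie on other chromosomes. Because these genes are known for a shared promoter layout, the 150 bases before the annotated start are printed below for the 4 genes that hold 2 short motifs in order, GCAAC (the core of many X boxes) and ATTGG (the Y box that NF-Y binds on the strand shown), with 20 to 30 bases between them. Capitals mark these motifs, and each sequence is given on the strand of its gene.
H2-Aa (chr17:34287824-34287973, minus strand): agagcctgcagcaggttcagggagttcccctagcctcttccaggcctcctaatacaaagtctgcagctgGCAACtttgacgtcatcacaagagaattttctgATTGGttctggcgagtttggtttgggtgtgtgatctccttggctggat
H2-Eb1 (chr17:34305717-34305866, plus strand): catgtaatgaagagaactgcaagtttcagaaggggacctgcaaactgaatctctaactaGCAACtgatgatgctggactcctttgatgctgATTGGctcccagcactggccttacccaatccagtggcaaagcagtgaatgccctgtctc
H2-Oa (chr17:34092229-34092378, plus strand): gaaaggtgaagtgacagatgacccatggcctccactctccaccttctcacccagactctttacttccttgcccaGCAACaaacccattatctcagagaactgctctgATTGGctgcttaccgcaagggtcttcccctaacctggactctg
H2-Ob (chr17:34238755-34238904, plus strand): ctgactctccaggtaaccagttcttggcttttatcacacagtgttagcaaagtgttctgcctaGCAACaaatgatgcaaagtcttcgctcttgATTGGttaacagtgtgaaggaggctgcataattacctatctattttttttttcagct

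The motifs were searched in the 250 bases before each start. The pair stood 28 bases apart in H2-Aa and H2-Oa, 27 in H2-Eb1 and 25 in H2-Ob. Of the 8 genes, 5 had an entry in the RefSeq promoter table. The fifth, H2-DMa, had 2 entries, at chr17:34122582-34122831 and chr17:34125268-34125517, and neither held the pair. Both lie inside the H2-DMa span given above, so the bases before the start of that span were not searched. On the strand of the gene, 0.256% of 32851 mouse promoters of the same length held it, and 0.49% did when both strands were read. Each motif alone is common on either strand (ATTGG in 33.8% and GCAAC in 29.9% of promoters). H2-Aa also holds TGACGTCA between the pair, a CREB motif found in 1.55% of promoters on either strand. The motifs were chosen after these sequences had been seen, so the counts only describe them. H2-Ab1, Ciita and Cd74 had no entry.

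Replicate 1 of the Zbtb46-GFP+ cells stood apart in every genotype: its median probe set signal was 23.8 to 24.1, against 100.8 to 112.1 on the other 12 arrays, and 59.4% to 71.7% of probe sets were identical between any 2 of these 3 arrays. Group values below are those of the other 12, with 2 arrays a group, in log2 units of probe set signal, and the 3 arrays are described apart. In Zbtb46-GFP+ cells each knocked-out gene was lower in its knockout than in WT. Batf3 averaged 7.10 ± 0.31 log2 units in Batf3 KO Zbtb46-GFP+ cells and 9.92 ± 0.10 in WT (adjusted p = 2.12e-05), and Id2 averaged 8.61 ± 0.30 in Id2 KO Zbtb46-GFP+ cells and 11.74 ± 0.37 in WT (adjusted p = 5.04e-04; limma, SD, n = 2). In CDPs neither difference was called: Batf3 averaged 7.11 ± 0.21 in the Batf3 KO and 7.14 ± 0.02 in WT, and Id2 averaged 6.52 ± 0.79 in the Id2 KO and 7.54 ± 0.19 in WT (both adjusted p = 1). The Id2 probe set still rose in the Id2 KO step (2.09, adjusted p = 0.00259), and whether it lies in the deleted part was not analysed here. Zbtb46 itself, whose reporter defined the gate, averaged 6.02 ± 0.09 in Id2 KO, 6.0 ± 0.01 in Batf3 KO and 7.08 ± 0.14 in WT Zbtb46-GFP+ cells, against 5.82 ± 0.07, 5.85 ± 0.24 and 6.0 ± 0.09 in the matching CDPs. Its step was called in WT (1.08, adjusted p = 6.36e-04) and was not called in the Id2 KO (0.20, adjusted p = 0.656) or the Batf3 KO (0.15, adjusted p = 0.739). Flt3, the cytokine receptor that defines CDPs, averaged 11.29 to 11.39 in the CDP groups, and Csf1r, their other defining receptor, 11.11 to 11.30. Among the 12 arrays, Xist was 5.06 to 5.71 log2 units in all KO arrays and 11.93 to 12.42 in all WT arrays, and the Y-linked gene Kdm5d ran the other way, so sex pattern and genotype cannot be told apart.

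In every genotype the class II genes were far higher in Zbtb46-GFP+ cells than in CDPs. All 8 were called higher at the later stage in each of the Id2 KO, Batf3 KO and WT genotypes (limma, Benjamini-Hochberg adjusted p under 0.05). Of all genes, 3.84% were called higher in the Id2 KO step, 3.87% in the Batf3 KO step and 4.71% in the WT step. The median log2 difference of the 8 genes was 4.26 in the Id2 KO, 4.58 in the Batf3 KO and 5.06 in WT, beside 0.01, 0.01 and 0.03 over all genes. For all 8 genes every Zbtb46-GFP+ array lay above every CDP array, which held for 20.3% of all genes in the Id2 KO, 21.6% in the Batf3 KO and 21.4% in WT. In sorted bulk RNA, a higher share of cells that carry these transcripts and more RNA per cell cannot be told apart.

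**Figure D1:**
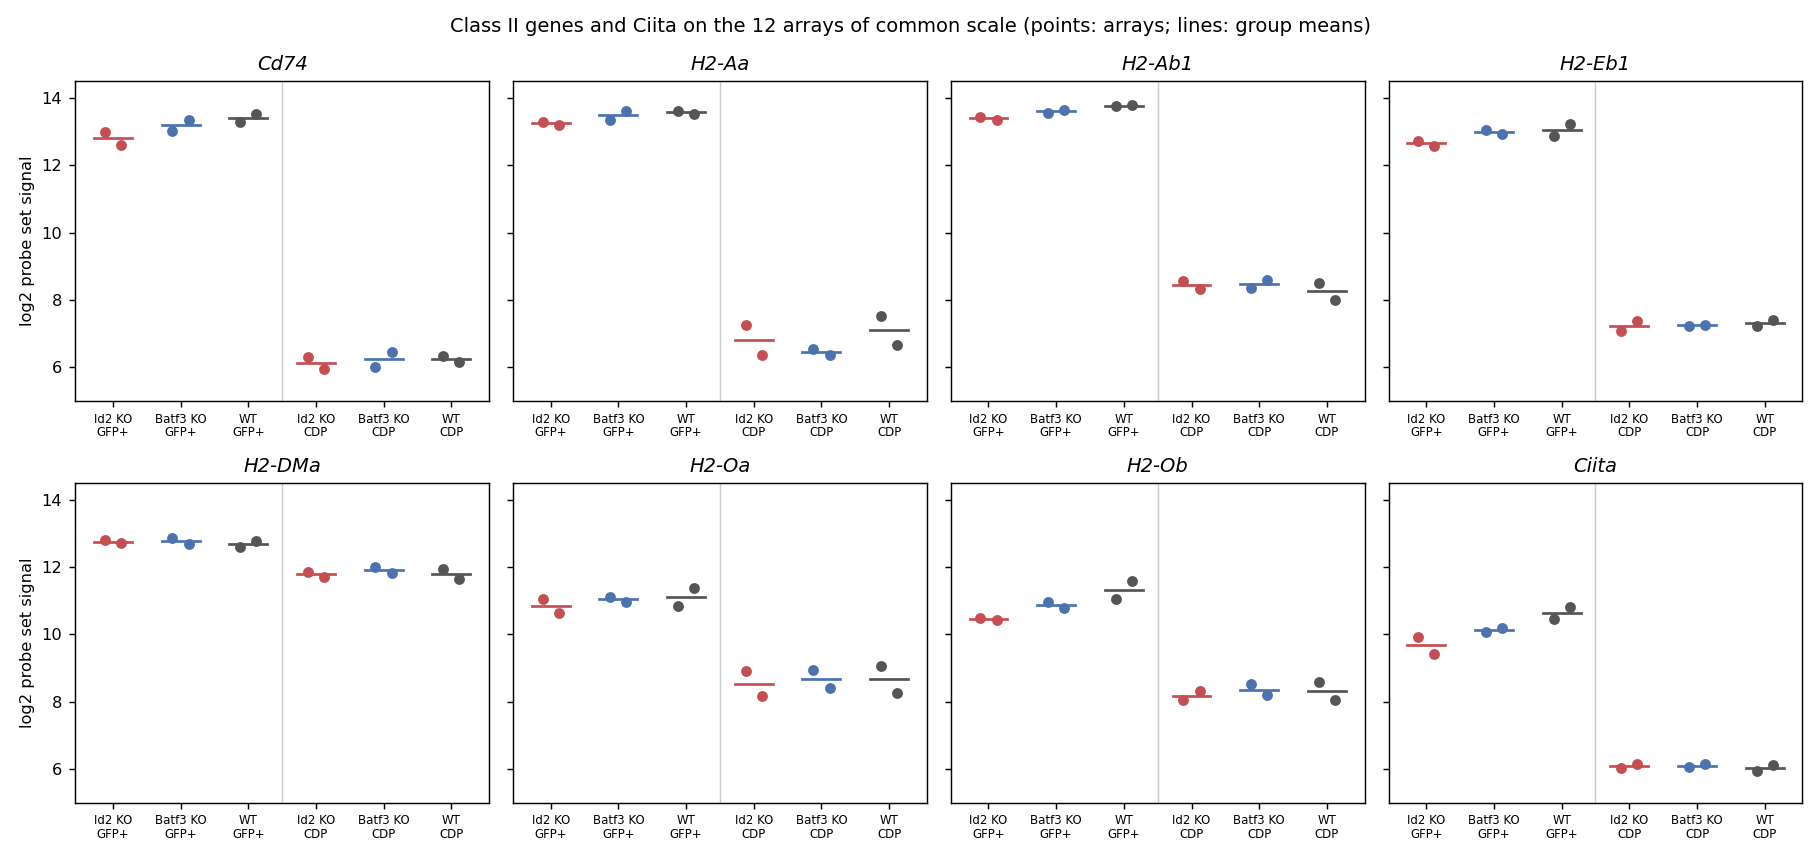
Log2 probe set signal (vertical axis) of each of the 8 genes on the 12 arrays of common scale, with Zbtb46-GFP+ groups left of the CDP groups. Points are arrays and lines are group means of 2 arrays. Cd74 lies between 12.61 and 13.53 in Zbtb46-GFP+ cells and between 5.94 and 6.46 in CDPs, while H2-DMa is at or above 11.64 on every array.

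Ciita (chr16:10480014-10531064), the coactivator of class II promoters, was near the bottom of its range in CDPs. It measured 9.91 and 9.42 log2 units in Id2 KO Zbtb46-GFP+ cells, against 6.02 and 6.16 in Id2 KO CDPs. In the Batf3 KO it measured 10.07 and 10.18 in Zbtb46-GFP+ cells and 6.05 and 6.15 in CDPs. In WT it measured 10.47 and 10.81 in Zbtb46-GFP+ cells and 5.94 and 6.12 in CDPs. The 6 CDP arrays thus lay between 5.94 and 6.16 with all genotypes mixed. The Zbtb46-GFP+ arrays formed 3 ranges that did not overlap, lowest in the Id2 KO and highest in WT. The share of all genes with 3 such ranges was not counted. The step was 3.58 log2 units in the Id2 KO (SE 0.18, 11.9-fold, adjusted p = 1.71e-06), 4.02 in the Batf3 KO (16.3-fold, adjusted p = 3.67e-07) and 4.60 in WT (24.3-fold, adjusted p = 8.69e-08).

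Cd74 (chr18:60803849-60812652), which encodes the invariant chain, had the widest step of the 8 genes in the Id2 KO and in WT. It measured 12.98 and 12.61 in Id2 KO, 13.03 and 13.33 in Batf3 KO and 13.29 and 13.53 in WT Zbtb46-GFP+ cells. Its CDP arrays measured 6.32 and 5.94 in the Id2 KO, 6.02 and 6.46 in the Batf3 KO, and in WT 6.32 and 6.17. No Zbtb46-GFP+ array came within 6 log2 units of a CDP array. Its step was 6.67 in the Id2 KO (SE 0.20, 102-fold, adjusted p = 2.57e-08), 6.94 in the Batf3 KO (123-fold, adjusted p = 2.05e-08) and 7.17 in WT (144-fold, with a 95% interval of 105 to 196).

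The classical chains had steps of 4.95 to 7.03, with H2-Ab1 the least of them in each genotype. H2-Aa, the alpha chain of I-A, measured 13.29 and 13.19 in Id2 KO, 13.35 and 13.61 in Batf3 KO and 13.62 and 13.53 in WT Zbtb46-GFP+ cells. In CDPs it measured 7.25 and 6.37 in the Id2 KO, 6.55 and 6.35 in the Batf3 KO, and in WT 7.54 and 6.65. Its CDP replicates differed by up to 0.89 log2 units, more than those of the other classical chains, and its step had an SE of 0.30 (6.43 in the Id2 KO, 7.03 in the Batf3 KO and 6.48 in WT). H2-Ab1, the beta chain that pairs with it, measured 13.44 and 13.35 in Id2 KO, 13.56 and 13.65 in Batf3 KO and 13.75 and 13.79 in WT Zbtb46-GFP+ cells, against 7.99 to 8.59 over the 6 CDP arrays. H2-Eb1, the beta chain of I-E, measured 12.73 and 12.56 in Id2 KO, 13.05 and 12.92 in Batf3 KO and 12.88 and 13.21 in WT Zbtb46-GFP+ cells, against 7.07 to 7.40 over the 6 CDP arrays. The H2-Ab1 step was 4.95 in the Id2 KO, 5.13 in the Batf3 KO and 5.52 in WT (SE 0.17), and the H2-Eb1 step was 5.42, 5.74 and 5.73 in the same order (SE 0.16). The adjusted p-values of these 3 chains ran from 7.20e-09 to 1.16e-06 over the genotypes.

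H2-DMa and the H2-O genes, which act on peptide loading, moved less. H2-DMa, the alpha chain of the CLIP exchanger, was already high in CDPs. It measured 12.81 and 12.70 in Id2 KO, 12.85 and 12.69 in Batf3 KO and 12.60 and 12.77 in WT Zbtb46-GFP+ cells, and 11.64 to 11.99 over the 6 CDP arrays. Its step was 0.98 in the Id2 KO (1.97-fold, adjusted p = 0.00229), 0.86 in the Batf3 KO (1.82-fold, adjusted p = 0.00446) and 0.89 in WT (1.86-fold, adjusted p = 0.00241), each with an SE of 0.15. In the Batf3 KO the call was lost without the second CDP array (0.77, adjusted p = 0.0503). This was the smallest step of the 8 genes in each genotype.

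H2-Oa and H2-Ob encode the chains of H2-O, the inhibitor of H2-DM, which is known mainly from B cells, thymic epithelium and dendritic cells. H2-Oa measured 11.05 and 10.62 in Id2 KO, 11.11 and 10.97 in Batf3 KO and 10.84 and 11.38 in WT Zbtb46-GFP+ cells, against 8.16 to 9.06 over the 6 CDP arrays. H2-Ob measured 10.49 and 10.43 in Id2 KO, 10.95 and 10.77 in Batf3 KO and 11.05 and 11.59 in WT Zbtb46-GFP+ cells, against 8.03 to 8.58 over the 6 CDP arrays. The Zbtb46-GFP+ arrays of the 3 genotypes overlapped for H2-Oa, whereas for H2-Ob they did not, a separation whose share over all genes was not counted. The H2-Oa step was 2.31 in the Id2 KO, 2.38 in the Batf3 KO and 2.45 in WT (SE 0.32, adjusted p = 0.00147, 0.00106 and 5.49e-04). The H2-Ob step was 2.28 in the Id2 KO, 2.5 in the Batf3 KO and 3.01 in WT (SE 0.22, adjusted p = 1.82e-04, 7.28e-05 and 1.19e-05). In 6 of 6 groups H2-Oa was higher, by 0.14 to 0.79 log2 units, on the array with the higher 75th percentile of signal. H2-DMa showed the same in 6 of 6 groups, by 0.11 to 0.29, H2-Ob in 5 of 6 groups, and the other 5 genes in 2 to 4. The arrays were ranked by their own signal, and the share of all genes higher in 6 of 6 groups was not counted. These counts therefore do not set the genes apart from others. The part of this array difference in the steps was not tested beyond the settings given at the end.

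**Figure D2:**
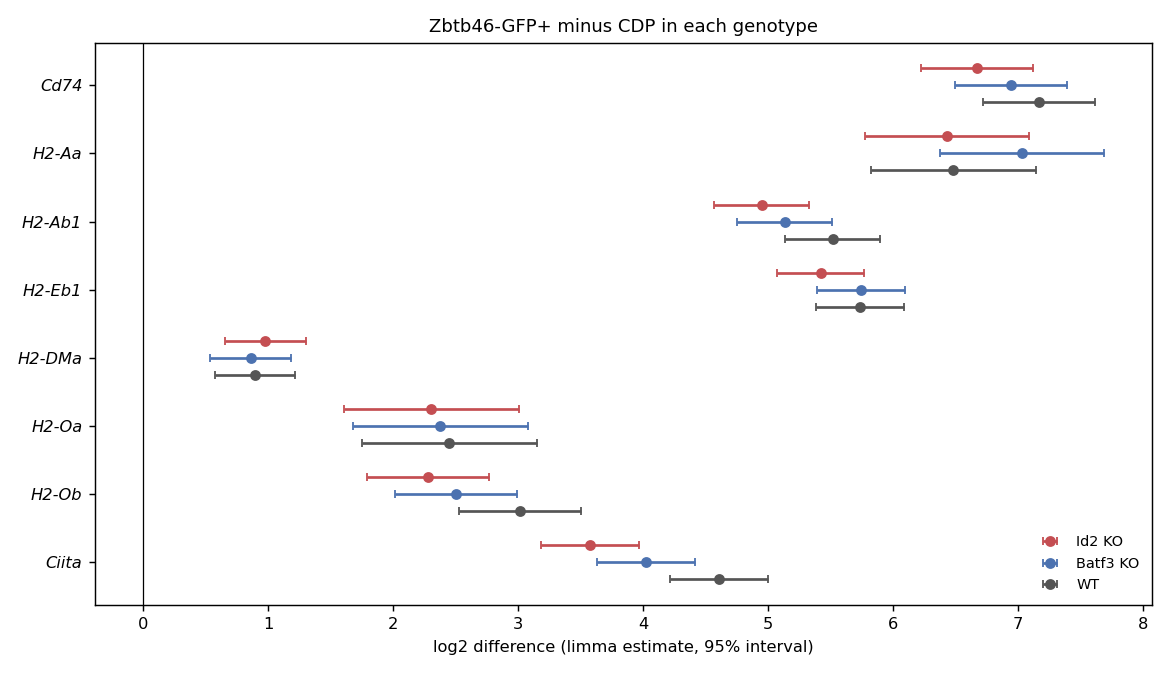
Log2 difference of Zbtb46-GFP+ cells minus CDPs (horizontal axis) for each of the 8 genes in the Id2 KO, the Batf3 KO and WT, with points for limma estimates from 2 arrays a group and bars for 95% intervals. All intervals lie above 0, and the estimates run from 0.86 for H2-DMa in the Batf3 KO to 7.17 for Cd74 in WT.

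The question of how loss of Id2 bears on class II genes in Zbtb46-GFP+ cells had 1 call among the 8. Ciita was lower in the Id2 KO than in WT, by -0.97 log2 units (SE 0.18, 95% interval -1.36 to -0.58, 0.51-fold, adjusted p = 0.018), and both Id2 KO arrays lay below both WT arrays. Of all genes, 1.81% were called in this comparison and 0.717% were called lower. The call rested on both replicates 3: without the WT one the difference was -0.80 (adjusted p = 0.121), and without the Id2 KO one it was -0.73 (adjusted p = 0.192). It was not called either when the 3 arrays of other scale were added with a term of their own (-0.65, adjusted p = 0.166). Those 3 arrays hold 1 identical Ciita value, so their part in that difference was fixed by the tie. That fit therefore cannot decide the call.

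None of the other 7 genes passed the test, and 6 of them had values below 0. H2-Ob differed by -0.87 in the Id2 KO from WT (95% interval -1.35 to -0.38, adjusted p = 0.0943) and Cd74 by -0.62 (interval -1.07 to -0.17, adjusted p = 0.246). Among the classical chains, H2-Eb1 differed by -0.39 (interval -0.74 to -0.05), H2-Ab1 by -0.37 (interval -0.76 to 0.01) and H2-Aa by -0.33 (interval -0.99 to 0.33). H2-Oa differed by -0.28 (interval -0.98 to 0.42) and H2-DMa by 0.07 (interval -0.25 to 0.39), a value that was -0.04 with centring on the 75th percentile and -0.16 with all 15 arrays. The adjusted p-values of the last 5 ran from 0.419 to 0.985. Unadjusted, 4 of the 8 were under 0.05, as were 9.29% of all genes. Both Id2 KO arrays were below both WT arrays for 6 of the 8 genes, all but H2-Oa and H2-DMa, which held for 16.4% of all genes. The median difference of the 8 genes was -0.38, beside -0.02 over all genes.

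Loss of Batf3 gave no call among the 8 genes in Zbtb46-GFP+ cells (limma), where 0.336% of all genes were called. At an unadjusted p under 0.05 there was 1 of the 8, beside 4.45% of all genes. That gene was Ciita, at -0.51 in the Batf3 KO against WT (95% interval -0.91 to -0.12, adjusted p = 0.667). H2-Ob differed by -0.46 (interval -0.95 to 0.02) and Cd74 by -0.23 (interval -0.68 to 0.22). The classical chains differed by -0.16 for H2-Ab1, -0.09 for H2-Aa and -0.06 for H2-Eb1, H2-Oa by -0.07 and H2-DMa by 0.08. For H2-Ab1, H2-Ob and Ciita both Batf3 KO arrays were below both WT arrays, and 10.7% of all genes showed that. Intervals of the classical chains reached down to -0.75 log2 units, so these data do not show that the genotypes were alike.

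Between the knockouts in Zbtb46-GFP+ cells, Id2 KO minus Batf3 KO, none of the 8 was called (limma), where 0.592% of all genes were called at an adjusted p under 0.05. At an unadjusted p under 0.05 there was 1 of the 8, beside 5.43% of all genes. For 6 genes both Id2 KO arrays lay below both Batf3 KO arrays, beside 16.7% of all genes. All 8 differences were below 0, from -0.46 for Ciita (95% interval -0.85 to -0.07, adjusted p = 0.683) to -0.02 for H2-DMa. These 3 comparisons share arrays, so their differences are not independent of each other. By level, the order in Zbtb46-GFP+ cells was Id2 KO lowest, Batf3 KO next and WT highest for 7 of the genes. Neighbours in that order did not overlap for Ciita, H2-Ob and H2-Ab1. Taken singly, 16.7% of all genes had the Id2 KO arrays below the Batf3 KO ones, and 10.7% the Batf3 KO arrays below the WT ones. The shares of all genes with the whole order, or with both gaps, were not counted, so these counts only describe the 8 genes. For Cd74, H2-Aa and H2-Eb1 the Id2 KO arrays lay below those of the Batf3 KO, whose range overlapped that of WT. For H2-Oa and H2-DMa the genotypes overlapped, and H2-DMa had another order, at 12.75 ± 0.08 in the Id2 KO, 12.77 ± 0.11 in the Batf3 KO and 12.68 ± 0.12 in WT (SD, n = 2).

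**Figure D3:**
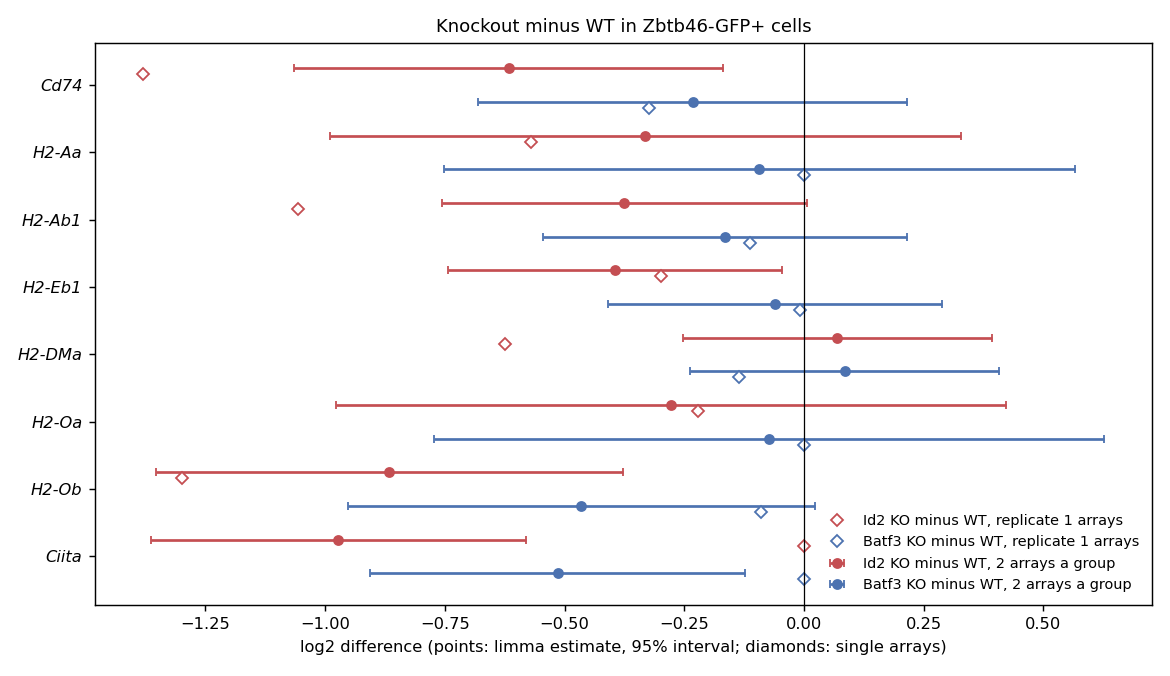
Log2 difference of each knockout minus WT in Zbtb46-GFP+ cells (horizontal axis) for the 8 genes. Filled points with bars are limma estimates and 95% intervals from 2 arrays a group, and open diamonds are differences between the single replicate 1 arrays. Ciita lies at -0.97 in the Id2 KO and -0.51 in the Batf3 KO, while both its diamonds are at 0 because the 3 arrays hold 1 identical value.

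The 3 replicate 1 arrays can be set only against each other. Their Id2 KO array was below their WT array for 7 of the 8 genes, and the share of all genes lower on it was not counted. Cd74 measured 9.61 in the Id2 KO, 10.67 in the Batf3 KO and 10.99 in WT. H2-Ob measured 6.83, 8.04 and 8.13 and H2-Ab1 10.35, 11.30 and 11.41 in the same order. For these 3 genes the Id2 KO array was thus the low one, with the Batf3 KO array nearer to WT. H2-Aa measured 10.59 in the Id2 KO and exactly the same value, 11.16, in the Batf3 KO and in WT. The other differences of the Id2 KO from WT were -0.62 for H2-DMa, -0.30 for H2-Eb1 and -0.22 for H2-Oa. Ciita read 7.32 on all 3 arrays, to the last deposited digit. Between these arrays shared values were common, so the tie gives no sign of an equal level, and 1 array a group allows no test.

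In CDPs neither knockout gave a call among the 8 genes, nor an unadjusted p under 0.05 (limma). Over all genes, 0.0251% were called in the Id2 KO and 0.0502% in the Batf3 KO, and 0.632% and 1.29% had an unadjusted p under 0.05. The Id2 KO differences ran from -0.28 for H2-Aa to 0.19 for H2-Ab1, and arrays of the 2 genotypes overlapped for all 8. The Batf3 KO differences ran from -0.64 for H2-Aa (95% interval -1.30 to 0.02) to 0.22 for H2-Ab1. H2-Aa was the 1 gene whose Batf3 KO CDP arrays, at 6.55 and 6.35, both lay below the WT ones, at 7.54 and 6.65, as 8.2% of all genes did. Ciita differed from WT CDPs by 0.06 in the Id2 KO and 0.07 in the Batf3 KO, with intervals inside -0.34 to 0.46.

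Whether a knockout changed the step itself was tested as an interaction, the step in the knockout minus the step in WT. No gene of the 8 was called for either knockout (limma), where 0.321% of all genes were called for Id2 and 0.0953% for Batf3. At an unadjusted p under 0.05 were 4.81% of all genes for Id2 and 1.92% for Batf3. There were 3 of the 8 for Id2, namely Ciita at -1.03 (95% interval -1.58 to -0.47, adjusted p = 0.187), H2-Ob at -0.73 and H2-Ab1 at -0.57 (both adjusted p = 0.96). For Batf3 there was 1, Ciita at -0.58 (interval -1.13 to -0.03, adjusted p = 1). The difference in the Ciita step without Id2 thus did not pass the test over all genes. The estimates for Id2 were smallest in size for H2-DMa (0.08, interval -0.37 to 0.54) and H2-Aa (-0.05, interval -0.98 to 0.88). With intervals this wide, these data do not show that their steps were alike.

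Within the 6 Zbtb46-GFP+ arrays of common scale the class II genes followed Ciita to different degrees. Pearson's r with Ciita was 0.96 for H2-Ab1, 0.96 for Cd74, 0.93 for H2-Ob, 0.87 for H2-Eb1, 0.80 for H2-Aa, 0.75 for H2-Oa and -0.10 for H2-DMa (n = 6, 2 arrays per genotype, given as a description). The arrays share genotype, and so these values repeat the order of the groups. Without the 2 arrays farthest from the Ciita median, r was 0.97 for H2-Ab1, 0.82 for H2-Ob and 0.79 for Cd74, but 0.24 for H2-Eb1 and -0.87 for H2-Oa, so the relation for those last genes rested on these arrays.

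Over all 12 arrays, the 5 genes most like each of Cd74, Ciita, H2-Oa and H2-Ob were sought among 1566 genes whose group means spanned at least 1 log2 unit. Slamf7, a surface receptor of the SLAM family, came first for both Cd74 (r = 0.997) and Ciita (r = 0.995). It averaged 10.71 in Id2 KO, 10.78 in Batf3 KO and 11.43 in WT Zbtb46-GFP+ cells, and 5.86 to 6.09 in CDPs. Cd74 was next most like P2ry6, Gpr35, P2ry10 and Smpdl3b, and Ciita most like P2ry6, Phf11a, P2ry10 and Smpdl3b; P2ry6 encodes a nucleotide receptor. For H2-Oa the list was Nabp1 (r = 0.996), Hivep2, Itgb2, Pik3r5 and Slc66a1, and for H2-Ob it was Srebf2 (r = 0.990), Pgap6, Irf5, P2ry6 and P2ry10. The list of H2-Oa thus shared no gene with those of the other 3. Such r values mostly reflect the step between the stages, since arrays of 2 stages make up the 12 points.

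The factors that recruit Ciita to class II promoters are RFX, NF-Y and CREB factors, which work with acetyltransferases. Of 11 listed, none was called in the Id2 KO step or the WT step, and 1, the acetyltransferase gene Ep300, was higher in the Batf3 KO step (0.55). Rfx5, the DNA-binding RFX subunit, averaged 7.77 ± 0.72 in WT Zbtb46-GFP+ cells and 7.77 ± 0.10 in WT CDPs (SD, n = 2). Nfya averaged 10.60 ± 0.08 and 10.92 ± 0.10 in the same groups. The median difference of the 11 in the WT step was 0.06, and none was called in either knockout against WT.

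Of 14 regulators of Ciita analysed here, 4 rose and 1 fell in the WT step, in which 6.38% of all genes fell. Irf4, an interferon regulatory factor of dendritic and B cells, rose by 2.48, the interferon gamma receptor gene Ifngr1 by 1.99, the kinase gene Jak2 by 1.52 and Irf2 by 0.87, while the E protein gene Tcf3 differed by -0.84. In Zbtb46-GFP+ cells of the Id2 KO against WT, 1 rose and 1 fell. Tcf4, the E protein of plasmacytoid dendritic cells, averaged 11.62 ± 0.07 in the Id2 KO and 10.08 ± 0.58 in WT (1.54, adjusted p = 0.0116). Ifngr1 averaged 9.77 ± 0.27 in the Id2 KO and 11.22 ± 0.37 in WT (-1.44, adjusted p = 0.00469). None was called in the Batf3 KO against WT. Irf8, which cDC1 cells require, averaged 13.0 ± 0.00 in the Id2 KO, 12.83 ± 0.01 in the Batf3 KO and 12.88 ± 0.17 in WT Zbtb46-GFP+ cells.

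The lysosomal enzymes that cut antigen and the invariant chain split in direction in the WT step, where 3 of 9 measured rose and 2 fell. In the Id2 KO step 5 rose and none fell, and in the Batf3 KO step 3 rose and 1 fell. Of 19938 genes, 765 were called higher and 594 lower in the Id2 KO step, and 771 and 661 in the Batf3 KO step. Ifi30, a thiol reductase that opens disulfide bonds, rose by 1.73, Ctss, the main invariant chain protease of dendritic cells, by 0.87 and Ctsh by 0.75, while Lgmn differed by -0.73 and Ctsd by -1.73. In Zbtb46-GFP+ cells of the Id2 KO against WT, 3 of the 9 were higher and none lower, where 1.09% of all genes were higher: Ctsl by 1.48, Ctsd by 1.21 and Lgmn by 0.98. These went against the direction of Ciita there. Ctss averaged 12.12 ± 0.10 in the Id2 KO and 11.97 ± 0.05 in WT Zbtb46-GFP+ cells, and was not called. None of the 9 was called in the Batf3 KO against WT.

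Genes that act on class II at the cell surface also divided. Of 8 measured, 4 rose and none fell in the WT step: the tetraspanin gene Cd9 by 2.67, Cd82 by 1.14, Cd83, whose product shields class II from ubiquitination, by 1.07, and Marchf1, the ligase that ubiquitinates it, by 0.86. In the Id2 KO against WT, Cd63 was higher by 1.86, while Cd9 differed by -1.38 and Cd82 by -0.94. None was called in the Batf3 KO against WT. In Zbtb46-GFP+ cells of the Id2 KO against WT, 1.81% of all genes were called. The 8 pathway genes called there were Tcf4, Ifngr1, Ctsl, Ctsd, Lgmn, Cd63, Cd9 and Cd82. Of these, Ctsl alone kept its call without each single array. The other 7 lost it without replicate 2 or replicate 3 of the Id2 KO Zbtb46-GFP+ arrays, with a highest adjusted p of 0.0571 for Ctsd, 0.0682 for Ifngr1, 0.117 for Tcf4, 0.167 for Cd63, 0.19 for Cd9, 0.195 for Cd82 and 0.223 for Lgmn, and 5 of these lost it without a WT Zbtb46-GFP+ array too.

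Of the other class II chain genes, H2-Eb2 rose in the WT step (1.17, adjusted p = 0.0018) and in the Batf3 KO step (1.16). It was not called in the Id2 KO step (0.40), and the test of the difference between steps called no gene of this list. It stayed dim beside H2-Eb1, at 6.57 ± 0.29 in Id2 KO, 6.99 ± 0.07 in Batf3 KO and 7.19 ± 0.25 in WT Zbtb46-GFP+ cells, although signals of 2 probe sets cannot be ranked as amounts. H2-Ea measured 4.89 to 5.12 on average in all 6 groups, and none of its differences was called. Among 5 measured neighbours that lie between the class II members on chromosome 17, the class I peptide transporter gene Tap1 rose by 0.66 and the proteasome gene Psmb9 by 0.56 in the WT step. Psmb8, Tap2 and Brd2 were not called, and none of the 5 was called in the knockout steps or in either knockout against WT. In the WT step 17 pathway genes were called, where 4.71% of all genes were called higher and 6.38% lower. Of these 17, 6 lost the call without at least 1 array. Without WT CDP replicate 1 these were Lgmn (adjusted p = 0.215), Cd83 (0.117), Marchf1 (0.0726) and Tcf3 (0.0714), and without WT CDP replicate 2 they were Psmb9 (0.224), Tap1 (0.116) and Lgmn (0.0676). Lgmn, Cd83, Tap1 and Psmb9 also lost it without a WT Zbtb46-GFP+ array, and Lgmn and Psmb9 without some KO arrays.

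**Figure D4:**
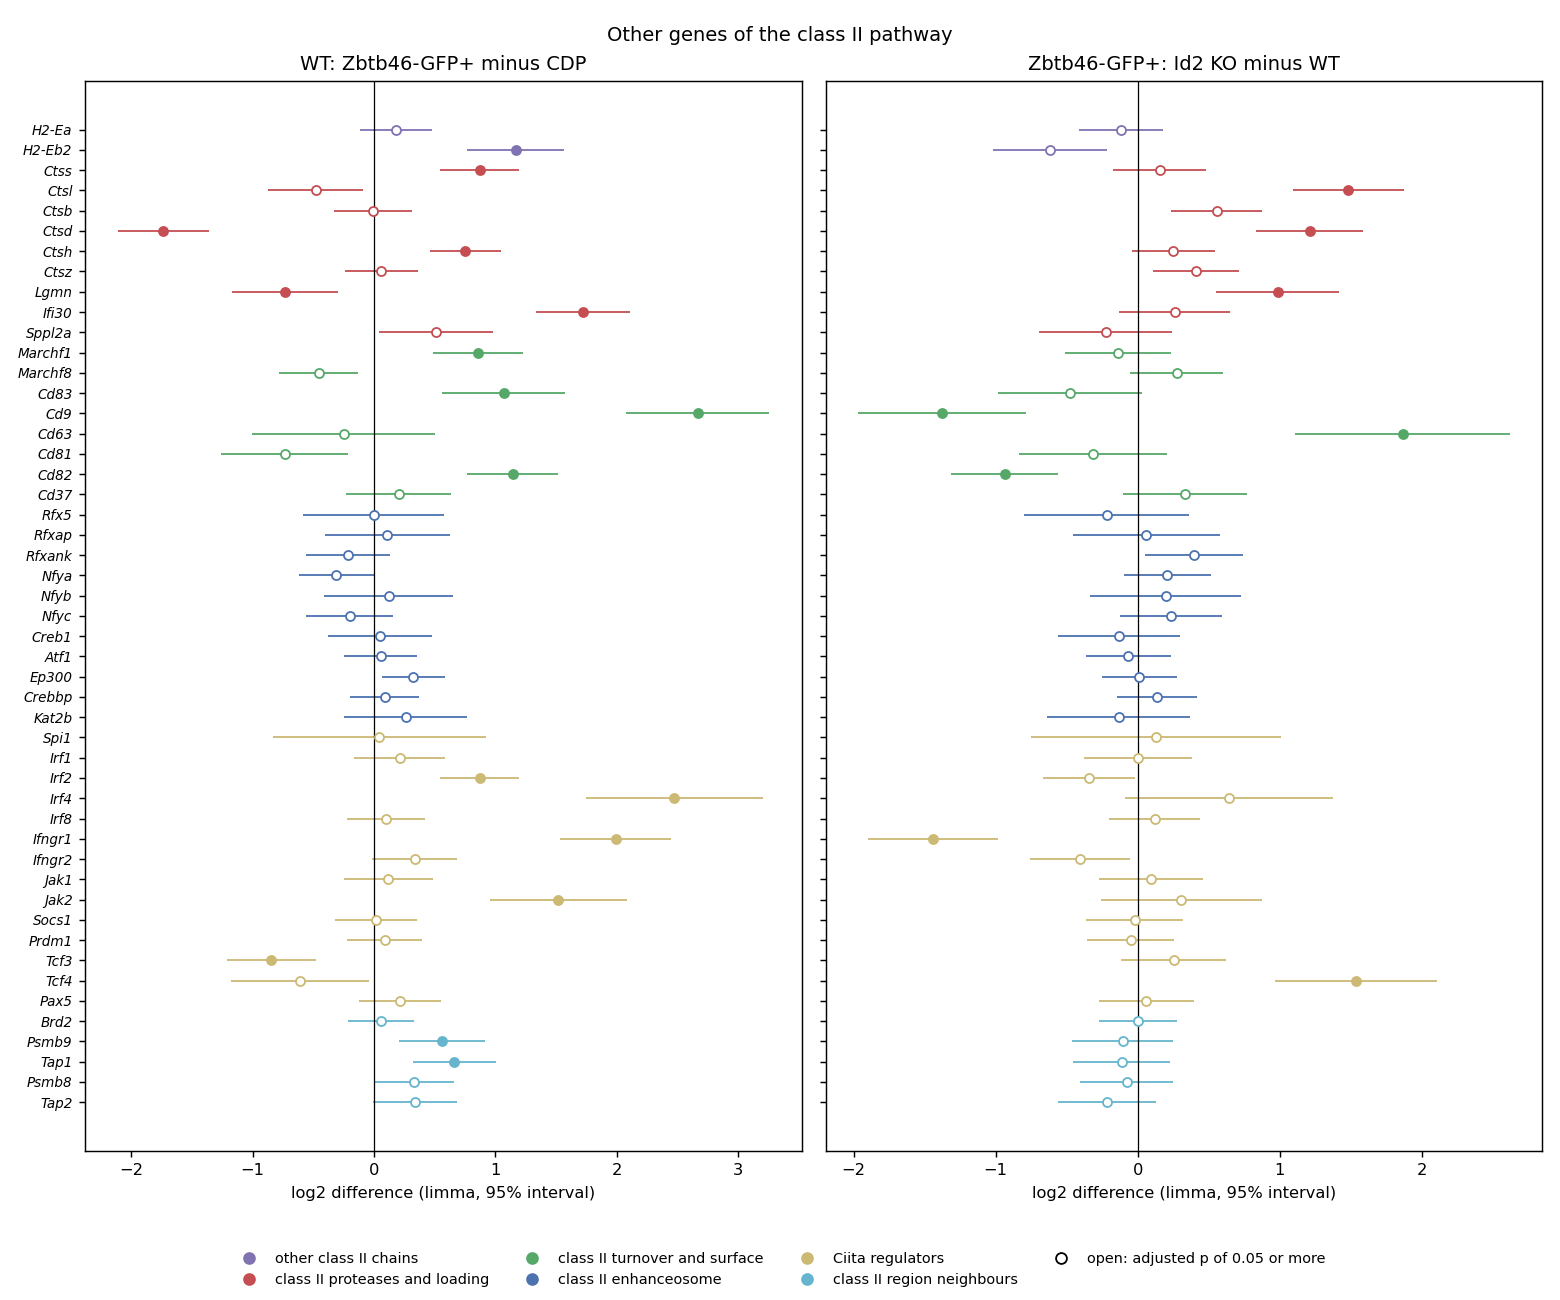
Log2 difference (horizontal axes; limma estimates with 95% intervals, 2 arrays a group) of other genes of the pathway, in WT Zbtb46-GFP+ cells minus WT CDPs on the left and in Id2 KO minus WT Zbtb46-GFP+ cells on the right. Filled points passed an adjusted p of 0.05. The enhanceosome genes cluster near 0 in both panels, and Ctsl at 1.48 and Ifngr1 at -1.44 stand out on the right.

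Markers of other dendritic cell types moved in the same Zbtb46-GFP+ arrays as Ciita. In the Id2 KO against WT there, 0.717% of all genes were called lower and 1.09% higher. Of 7 cDC1 markers, 6 were lower in the Id2 KO than in WT, among them Tlr3 (-3.78) and Xcr1 (-3.22), and their summed signal was 5919 to 6193 in the Id2 KO, 7995 to 8206 in the Batf3 KO and 19173 to 21574 in WT. Of 7 measured pDC markers, 4 were higher in the Id2 KO, with Ly6d at 4.03 and Siglech at 3.06. Their summed signal was 17493 to 18932 in the Id2 KO, 10144 to 12924 in the Batf3 KO and 8033 to 9706 in WT. Of 9 neutrophil and granule markers, 3 were higher in the Id2 KO, with Elane at 2.32 and Prtn3 at 1.90. Their sums were 42301 to 43957 in the Id2 KO, 22898 to 30892 in the Batf3 KO and 16716 to 17643 in WT. Of 7 measured monocyte and macrophage markers, 1 was higher and 1 lower in the Id2 KO. Their sums were 4236.2 to 4297.6 in the Id2 KO, 5448.7 to 5596.5 in the Batf3 KO and 5640.3 to 5668.2 in WT. The 7 cDC2 markers had no call, with sums of 14736 to 16165 in the Id2 KO, 12490 to 15954 in the Batf3 KO and 4468 to 9893 in WT. B cells also carry class II, Ciita and H2-O. Of 9 measured B-cell markers none was called in the Id2 KO against WT, with sums of 1102 to 1369 in the Id2 KO, 2311 to 2383 in the Batf3 KO and 1285 to 1467 in WT. Among the defining genes, Cd79a and Ebf1 averaged 4.94 to 5.22 log2 units in the Zbtb46-GFP+ groups and 4.71 to 5.2 in CDPs, but Cd79b averaged 8.38 in Id2 KO, 8.21 in Batf3 KO and 8.01 in WT Zbtb46-GFP+ cells. Cd22 averaged 8.80 in Id2 KO, 10.68 in Batf3 KO and 9.50 in WT Zbtb46-GFP+ cells, and it rose by 1.5 in the WT step (adjusted p = 0.00103). In the WT step 4.71% of all genes were called higher and 6.38% lower. There 7 of 7 cDC1, 3 of 7 cDC2, 2 of 7 pDC and 2 of 9 B-cell markers were higher. Of 9 neutrophil and granule markers 4 were lower and none higher, with a list median of 1.05. In the Id2 KO step 4 of these 9 were higher and 3 lower (median 1.76), and in the Batf3 KO step 4 were higher and 3 lower (median 2.05). Of 19938 genes, 765 were higher and 594 lower in the Id2 KO step, and 771 and 661 in the Batf3 KO step. For comparison, the summed signal of the 8 class II genes was 42363 to 47735 in the Id2 KO, 51952 to 54934 in the Batf3 KO and 55527 to 61772 in WT Zbtb46-GFP+ cells. The part of cell type makeup in the class II differences was not tested.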

How the data were processed

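The authors deposited 1 value per probe set and array as intensity: linear signal summarised with Affymetrix Expression Console and RMA, per the submitters' processing notes, which give no versions. Settings and the genome build are not given in the sources used here. Values ran from 3.001 to 21042.07 and were turned into log2. Of 28853 probe sets, 21789 had a single gene symbol in the platform annotation, 1621 had several and 5443 were not named in it. The brightest single-symbol probe set stood for each of 19938 genes. Of the single-symbol probe sets, 21698 matched a RefSeq gene (GRCm38.p6), the source of positions and promoter sequences.

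Comparisons used limma 3.58.1 in R 4.3.3 on 12 arrays: 6 group means, 6 residual degrees of freedom, an untrended empirical Bayes prior, and two-sided p-values adjusted by Benjamini-Hochberg across the 19938 genes, called under 0.05. The precision is set by 2 arrays a group. On data simulated for Id2 KO against WT Zbtb46-GFP+ arrays with 19938 genes, 90 of 100 genes changed by 1 log2 unit and 99 of 100 changed by 2 were called, with 7 false calls. The simulated noise was independent between arrays, with the moderated spread of each gene and the same mean in all groups. Residuals of real arrays with the same number correlated from -0.63 to 0.68. These counts therefore do not give the power or the false calls on the real arrays.

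The 8 genes, the gene lists and the set of 12 arrays were chosen with earlier results of these data known, and the lists come from general knowledge. Genes named are the 8, Batf3 and Id2, the 5 genes most correlated with each of Cd74, Ciita, H2-Oa and H2-Ob over 12 arrays, and up to 4 called genes per list (2 outside the WT step and the knockouts against WT). Genes named without a call (Rfx5, Nfya, Irf8, Ctss in the Id2 KO, H2-Ea, Psmb8, Tap2, Brd2, Zbtb46, Flt3, Csf1r, Cd79a, Cd79b, Ebf1) and Xist and Kdm5d were chosen after their values were seen. Alternatives were the arrays used, scaling, a filter on dim genes, the variance model, probe set choice, a replicate block and leaving out each array.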

Additional observations from a re-analysis of the deposited data

Results flagged for a closer look

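Interactions of the knockouts with stage were looked at for 59 genes (the 8 class II genes, the pathway lists and the targeted genes), and 3 passed an adjusted p of 0.05 in the limma test of the difference between steps. No group has 4 or more arrays of common scale, so no array was tested as an outlier. Batf3 had a smaller step in the Batf3 KO than in WT, by -2.79 log2 units, which is the targeted gene in its own knockout. Its step was also smaller in the Id2 KO than in WT, by -1.55 (adjusted p = 0.0318): it averaged 8.29 ± 0.11 in Id2 KO and 9.92 ± 0.10 in WT Zbtb46-GFP+ cells, and 7.05 ± 0.26 in Id2 KO and 7.14 ± 0.02 in WT CDPs (SD, n = 2). That call held in 9 of 21 alternatives, with adjusted p from 5.71e-04 to 1, and 9 of the 12 fits without 1 array lost it. Ifngr1 had a smaller step in the Id2 KO than in WT, by -1.65 (adjusted p = 0.0488), at 9.77 ± 0.27 in Id2 KO Zbtb46-GFP+ cells and 9.43 ± 0.28 in Id2 KO CDPs, against 11.22 ± 0.37 and 9.23 ± 0.03 in WT. It held in 8 of 21 alternatives, with adjusted p from 6.05e-04 to 1, and 10 of the 12 fits without 1 array lost it. Neither call held with all 15 arrays.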

How the results depend on the processing

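Of 960 differences of the 8 genes recomputed with 1 array left out, 905 kept their direction and side of the threshold, 3 lost their call and 52, none of them called, changed sign. An array of a group outside the comparison cannot move the difference, so for most of the 960 the direction was fixed in advance. The 905 is therefore no measure of how steady the directions were. Of 720 under the other settings, 679 kept both, 23 lost the call, 7 gained it and 11 changed sign, 3 of which had been called. The filter on dim genes, the variance model and the probe set choice cannot move a difference either. Fitting all 15 arrays with no further term called 0 of the 8 genes in all 3 steps and 0 in Id2 KO against WT Zbtb46-GFP+ cells. H2-DMa then differed by -0.80 in the Id2 KO step, -0.76 in the Batf3 KO step and -0.66 in WT, while the median of all genes moved to -0.70, -0.70 and -0.67, since 1 array in 3 of each Zbtb46-GFP+ group is then on another scale. In Id2 KO against WT Zbtb46-GFP+ cells, 2 of the 8 were called with a term for the 3 arrays (Cd74 -0.87, adjusted p = 0.0495; H2-Ob -1.01, adjusted p = 0.0282; not Ciita), 2 with 75th percentile centring, 2 with quantile normalization and 2 with the crossed replicate block. Leaving out 1 array gave 0 to 1. Over all 21 alternatives, the adjusted p of Ciita ran from 0.00282 to 1. The Id2 interaction gave 1 call with quantile normalization (Ciita -1.06, adjusted p = 0.0427) and 1 with the crossed block. With the term for the 3 arrays, the Ciita value is identical on those arrays, so that fit cannot decide the Ciita call. The cause of the other changes was not tested.

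Values that were not called and changed sign when 1 array was left out were at most 0.28 in size on all 12 arrays for the 8 genes, and their ranges over the fits without 1 array follow in log2 units. In Batf3 KO against WT CDPs ranges were Cd74 -0.23 to 0.21, H2-Ab1 -0.036 to 0.48, H2-Eb1 -0.16 to 0.022, H2-DMa -0.028 to 0.27, H2-Oa -0.40 to 0.40, H2-Ob -0.23 to 0.32, Ciita -0.025 to 0.16 and Batf3 -0.17 to 0.12. In Id2 KO against WT CDPs ranges were Cd74 -0.31 to 0.071, H2-Aa -0.72 to 0.16, H2-Ab1 -0.064 to 0.45, H2-Eb1 -0.24 to 0.078, H2-DMa -0.16 to 0.13, H2-Oa -0.53 to 0.26, H2-Ob -0.41 to 0.14, Ciita -0.035 to 0.15 and Batf3 -0.26 to 0.0999. In Zbtb46-GFP+ cells of the Batf3 KO against WT ranges were H2-Aa -0.22 to 0.036, H2-Eb1 -0.23 to 0.11 and H2-Oa -0.34 to 0.19. In those of the Id2 KO against WT ranges were H2-DMa -0.015 to 0.15. Between the knockouts ranges were H2-DMa -0.093 to 0.063 and H2-Oa -0.42 to 0.0074. For the Id2 interaction ranges were H2-Aa -0.49 to 0.39, H2-DMa -0.064 to 0.23 and H2-Oa -0.54 to 0.25. For the Batf3 interaction ranges were H2-Eb1 -0.16 to 0.17, H2-DMa -0.18 to 0.11 and H2-Oa -0.47 to 0.32. In the Batf3 KO step ranges were Batf3 -0.22 to 0.21. Under the other settings, H2-DMa in Id2 KO against WT Zbtb46-GFP+ cells was -0.16 with 15 arrays, with or without a term, and -0.037 with 75th percentile centring, and its Id2 interaction was -0.15, -0.15 and -0.025. Its Batf3 interaction was 0.024 with quantile normalization, and that of H2-Eb1 was -0.049 with centring. Batf3 in the Batf3 KO step was 0.26 with 15 arrays and a term, 0.067 with centring and 0.0048 with quantile normalization. With 15 arrays and no term, pathway genes called in the WT step also changed sign: Ctss -0.29, Ctsh -0.29, Cd82 -0.68, Psmb9 -0.77 and Tap1 -0.93.

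With 75th percentile centring the median of all genes was 0.16 in the WT step, beside 0.03 as deposited (a shift of 0.13; -0.11 in Id2 KO against WT Zbtb46-GFP+ cells and in the Id2 interaction), with 1176 genes higher and 876 lower, against 940 and 1272 as deposited. Over all genes the WT step gave 2212 calls, 1 with 15 arrays and no term, and 1183 to 4829 otherwise. The Batf3 KO step gave 1432 (0, and 642 to 3487) and the Id2 KO step 1359 (0, and 488 to 3234). In Zbtb46-GFP+ cells, Id2 KO against WT gave 361 (0, and 120 to 1212), Batf3 KO against WT 67 (0, and 29 to 250) and Id2 KO against Batf3 KO 118 (0, and 36 to 506). The Id2 interaction gave 64 (0, and 20 to 373) and that of Batf3 19 (0, and 7 to 42). In CDPs, Batf3 KO gave 10 (0, and 5 to 26) and Id2 KO 5 (0, and 0 to 6).

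Residuals of same-numbered arrays correlated over 0.1 in 6 of 6 CDP pairs (0.53 to 0.68) and in 2 of 6 Zbtb46-GFP+ pairs (-0.55 to 0.48). Between stages they did so in 3 of 9 pairs (-0.63 to 0.54). With 2 arrays a group, the 2 residuals of a group are equal and opposite, so each correlation within a stage enters these counts 2 times. The numbers thus did not pair the arrays as a whole, though they may pair the CDPs. The fit with the replicate number as a block left every count among the 8 genes as it was (8, 8 and 8 in the steps, 1 in Id2 KO against WT Zbtb46-GFP+ cells, 0 elsewhere) and called 1682 genes in the WT step and 555 in Id2 KO against WT. The crossed replicate block, chosen after seeing the data, called 4829 and 1212. Its term was taken from the signal of the arrays themselves, so these counts do not show a pairing of replicates. With 2 arrays a group, precision limits all of these values.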

Other observations

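H2-DMb1 and H2-DMb2, the beta chain genes of the CLIP exchanger, share 1 probe set and were left out of the tests because it cannot tell them apart. Its signal lay between 11.90 and 12.17 log2 units on the 6 Zbtb46-GFP+ arrays of common scale. On the 6 CDP arrays it lay between 9.80 and 10.26, with no overlap between the stages. Within a genotype, 20.3% to 21.6% of all genes had every Zbtb46-GFP+ array above every CDP array. The share over the genotypes together was not counted.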
